A study of Rattus norvegicus with 102 samples.

Results

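The 2 corticosteroid receptors, the enzyme that renews their ligand inside cells and 4 genes that corticosterone induces were followed across CA1, CA3 and the dentate gyrus (DG) of young and aged rats. Members were the table entries whose gene symbol was Nr3c1, Nr3c2, Hsd11b1, Fkbp5, Sgk1, Tsc22d3 or Zbtb16. These 7 symbols took up 8 of the 26284 gene entries of the Illumina table, because Nr3c1 was listed under 2 Ensembl identifiers, and 8 of 26341 entries of the Ion Proton table. All 8 entries passed the filter on low values in every comparison.

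The rats were male Fischer 344 animals, given no drug or genetic change, and each provided 1 piece of CA1, CA3 and DG. The series description gives a dorsal slice as the source, whereas the study's methods describe dissecting the hippocampus over its length and removing the subiculum. The 10 young rats (suffix Y) were aged 5 to 6 months and the rest 17 to 22 months. Aged rats had been sorted by a water maze probe trial into unimpaired (OG, n = 12) and impaired (OB, n = 12) animals, and tissue was taken 2 weeks after the maze. Poly-A RNA of every piece was read on both an Illumina HiSeq and an Ion Proton, and a further table named WT, of unstated library type, was used as an alternative. Each library was a bulk piece of tissue, in which fewer cells of a type and less RNA per cell cannot be told apart.

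Corticosterone, the main glucocorticoid of the rat, enters cells and binds 2 related receptors that then act on genes in the nucleus. The mineralocorticoid receptor (Nr3c2) binds it tightly and is occupied even at rest, whereas the glucocorticoid receptor (Nr3c1) binds it less tightly and is filled mainly at the daily peak and under stress. The hippocampus is known for carrying both receptors, and the enzyme encoded by Hsd11b1 makes active corticosterone from its inert 11-keto form within the tissue.

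Values are normalised reads of the Illumina table unless another table is named, and they are not corrected for gene length, so levels were compared between libraries and not between genes. Library depth was 3.25 to 42.8 M reads (median 10.7 M) on the Illumina and 4.47 to 21.4 M (median 9.74 M) on the Ion Proton. A score was made per list of subfield markers, as the mean of log2 values scaled per gene. By distance in these scores, 14 libraries (6 CA1, 5 CA3 and 3 DG) were nearer another subfield than their own in both poly-A tables. They came from 12 rats, 10 of which were numbered from 9000 up. The rats fell into 2 number series, 18 numbered below 9000 (5 Y, 6 OG and 7 OB) and 16 from 9000 up (5 Y, 6 OG and 5 OB). The labels did not say what the numbers stand for. The study's methods describe a pair of sites, each with its own supplier, maze and tracking software, with as many young and as many aged rats per site as the number series hold. The labels did not give the site of a rat, so site and number series were not equated, and a part of site or supplier in the series differences was not tested. Members are given within the series too. Fits between subfields within a series, and tests of whether a difference between subfields was unlike between the series, were added after the data were seen. In 7 rats, 3 of them young, every Illumina library was deeper than 25 M reads.

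Nr3c1, the glucocorticoid receptor gene, had its highest median in CA1. Its main entry (ENSRNOG00000014096, chromosome 18 in the tables) ranged from 1140 to 1547 in the 34 CA1 libraries, with a median of 1344. CA3 libraries ran from 745 to 1758 with a median of 986, and DG libraries from 845 to 1457 with a median of 1038. The ranges overlapped, yet CA1 was the higher of the pair in 31 of 34 rats against CA3 and in 33 of 34 against DG. Leaving out the libraries nearer another subfield, CA1 was above CA3 in 24 of 24 rats. On the Ion Proton these counts were 27 and 24 of 34, and 20 of 24 without those libraries. The entry's Illumina to Ion Proton correlation across rats was 0.23 in CA1, 0.57 in CA3 and 0.39 in DG. A gene was called between subfields when its Benjamini-Hochberg adjusted p, from limma over all genes, was under 0.05, with 1 sign, on the Illumina and on the Ion Proton. CA1 exceeded CA3 by 0.42 on the log2 scale (SE 0.0486, limma adjusted p = 1.06e-11), and by 0.39 on the Ion Proton (adjusted p = 0.00487). The difference from DG was 0.33 on the Illumina (adjusted p = 1.26e-08) but 0.20 on the Ion Proton (limma adjusted p = 0.157), so it was not called. In the WT table it was 0.30 (limma adjusted p = 5.36e-08). Below 9000 CA1 exceeded CA3 by 0.56 (limma adjusted p = 3.33e-14; Ion Proton 0.63, adjusted p = 0.000846), and from 9000 up by 0.26 (adjusted p = 0.00672; Ion Proton 0.12, adjusted p = 0.674), so within the series the call held below 9000 only. The change in this difference between the series was -0.29 (limma adjusted p = 0.00329; Ion Proton -0.52, adjusted p = 0.074) and was not called. CA1 minus DG was called below 9000, at 0.36 (limma adjusted p = 3.43e-08, Ion Proton 0.47, adjusted p = 0.0216). Without the libraries nearer another subfield that call was lost (Ion Proton limma adjusted p = 0.0581). From 9000 up CA1 minus DG was 0.30 (limma adjusted p = 0.000784), with -0.11 on the Ion Proton (adjusted p = 0.51).

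The other Nr3c1 entry (ENSRNOG00000048800, also chromosome 18) gave the same order at lower values. CA1 libraries ran from 148 to 299 (median 235), CA3 libraries from 129 to 357 (median 179) and DG libraries from 118 to 262 (median 202). It was called in CA1 against CA3 (log2 difference 0.32, SE 0.0674, limma adjusted p = 8.07e-05) and against DG (0.24, adjusted p = 0.00207). Both calls held below 9000 (0.48 and 0.28, limma adjusted p = 2.67e-08 and 0.000545), and neither did from 9000 up (0.13 and 0.19, adjusted p = 0.468 and 0.176). Both entries carry the same symbol on the same chromosome, so reads may have been divided between them, and neither alone is a level of the whole gene.

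Nr3c2, the mineralocorticoid receptor gene (chromosome 19), was not called between any subfields over all rats, where opposite orders of the number series were averaged. Its values ran from 474 to 1696 in CA1 (median 1031), from 225 to 1525 in CA3 (median 1101) and from 490 to 1513 in DG (median 1052). The groups overlapped over almost their whole range, and the range was widest in CA3. The 95% interval of the log2 difference between CA1 and CA3 was -0.16 to 0.24. Below 9000 the CA1, CA3 and DG medians were 1117, 1254 and 1098, and CA3 was called above both, by 0.19 against CA1 (log2 difference CA1 minus CA3 -0.19, limma adjusted p = 0.0256) and by 0.20 against DG (adjusted p = 0.0185). From 9000 up they were 950, 734 and 981, with CA3 below DG (log2 difference -0.46, limma adjusted p = 0.0138) and CA1 minus CA3 at 0.30 (adjusted p = 0.182). Without the libraries nearer another subfield, CA1 minus CA3 below 9000 was -0.15 (limma adjusted p = 0.0566) and no longer called. CA3 minus DG stayed called in each series. The difference between the series in CA1 minus CA3 was called, at 0.50 (SE 0.165, limma adjusted p = 0.0117; Ion Proton 0.64, adjusted p = 8e-04), as was that in CA3 minus DG (-0.65, limma adjusted p = 0.000603). Both tables placed the rats in much the same order, with an Illumina to Ion Proton correlation of 0.88 to 0.91 within a subfield across the 34 rats.

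Hsd11b1 (chromosome 13) was nearly level across the hippocampus. It lay between 537 and 961 in CA1 (median 773), between 531 and 1004 in CA3 (median 775) and between 599 and 903 in DG (median 736), all overlapping. The log2 difference between CA1 and CA3 was bounded by -0.09 and 0.09 (95% interval), and no pair of subfields was called. CA1 minus CA3 was 0.12 below 9000 and -0.13 from 9000 up, not called in either series, and the change of -0.25 between the series was called (limma adjusted p = 0.0184; Ion Proton -0.39, adjusted p = 0.00786). Unlike these medians, single rats did differ, as described below for CA3.

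Fkbp5 (chromosome 20) encodes a co-chaperone that lowers the affinity of the glucocorticoid receptor for its hormone and is itself induced by that receptor. Over all rats its median was lowest in CA1 and highest in DG, but the order was not that of either number series. CA1 libraries held 666 to 1525 with a median of 974 (mean 1048, SD 271, n = 34). Libraries of CA3 held 816 to 1544 with a median of 1268 (mean 1234, SD 180), and those of DG held 924 to 1860 with a median of 1336 (mean 1408, SD 261). DG was above CA1 in 31 of 34 rats, although the ranges of the 3 subfields overlapped. CA1 was lower than DG by 0.45 on the log2 scale (log2 difference -0.45, SE 0.0707, limma adjusted p = 7.91e-08), and the Ion Proton gave -0.44 (adjusted p = 2.64e-06).

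DG was above CA1 in both number series, by 0.54 below 9000 (CA1 minus DG -0.54, limma adjusted p = 1.05e-10) and by 0.34 from 9000 up (-0.34, adjusted p = 0.00326), and called in each.

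The place of CA3 depended on the number series. Over all rats CA1 minus CA3 was -0.26 for Fkbp5 (SE 0.0707, limma adjusted p = 0.00168; Ion Proton -0.22, adjusted p = 0.0362), with CA3 the higher in 23 of 34 rats. CA3 minus DG was -0.18 (limma adjusted p = 0.0227; Ion Proton -0.22, adjusted p = 0.022). Below 9000 the CA1, CA3 and DG medians of Fkbp5 were 830, 1311 and 1265, so CA3 lay with DG, at CA1 minus CA3 -0.60 (limma adjusted p = 2.41e-12) and CA3 minus DG 0.06 (adjusted p = 0.423). From 9000 up they were 1360, 1196 and 1665, so CA3 lay with CA1, at CA1 minus CA3 0.11 (limma adjusted p = 0.484) and CA3 minus DG -0.45 (adjusted p = 0.000126). Both changes between the series were called, 0.71 for CA1 minus CA3 (SE 0.11, limma adjusted p = 1.05e-07) and -0.51 for CA3 minus DG (SE 0.11, adjusted p = 6.24e-05). Over all rats the first step was also lost without a filter on low values, with edgeR and when any one of 14 rats was left out, and the second was lost without rat R9869.

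The remaining induced genes were not called over all rats. Sgk1 (chromosome 1), a kinase induced by both receptors that acts on ion channels and transporters, ran from 777 to 2342 in CA1 (median 1226), 798 to 2929 in CA3 (median 1441) and 769 to 2268 in DG (median 1195). Tsc22d3 (chromosome 3 in the tables), which encodes the glucocorticoid-induced leucine zipper protein GILZ, ran from 687 to 1275 in CA1 (median 980), 763 to 1494 in CA3 (median 987) and 626 to 1357 in DG (median 906). Zbtb16 (chromosome 8), a zinc finger transcription factor known as PLZF, ran from 324 to 807 in CA1 (median 559), 326 to 837 in CA3 (median 583) and 313 to 739 in DG (median 490). All of these ranges overlapped between subfields. In the Illumina table CA3 exceeded DG by 0.26 for Sgk1, 0.19 for Tsc22d3 and 0.21 for Zbtb16 (limma adjusted p = 0.0157, 0.0137 and 0.00748), and on the Ion Proton the adjusted p values were 0.368, 0.333 and 0.0818, so none was called. Within rats, Tsc22d3 was higher in CA3 than in CA1 in 26 of 34 (Ion Proton 28 of 34). Without the libraries nearer another subfield this was 23 of 24 on each. CA3 was above DG in 28 of 34 rats for Tsc22d3 (Ion Proton 18 of 34), and in 26 of 27 (16 of 27) without those libraries. With the rat as a block Tsc22d3 was still not called. Zbtb16 was above DG in CA1 by 0.15 (limma adjusted p = 0.0514) and by 0.54 on the Ion Proton (adjusted p = 0.000259), and with the rat as a block it was called (limma adjusted p = 0.0278). Below 9000 it was called, at 0.20 (limma adjusted p = 0.0176), and from 9000 up it was 0.10 (adjusted p = 0.522). Ion Proton values of Zbtb16 ran from 337 to 3171 in CA1 (median 743) and from 319 to 937 in DG (median 554). In CA1 they correlated with the Illumina values at 0.39.

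Sgk1 had opposite orders in the number series. In order of CA1, CA3 and DG its medians were 970, 1489 and 1024 below 9000, and 1465, 1266 and 1410 from 9000 up. Below 9000 CA3 exceeded both other subfields, with CA1 minus CA3 at -0.59 (limma adjusted p = 1.62e-06) and CA3 minus DG at 0.63 (adjusted p = 2.78e-07), both called. From 9000 up these were 0.26 (limma adjusted p = 0.103) and -0.16 (adjusted p = 0.244). The changes between the series, of 0.85 and -0.79 (SE 0.152, limma adjusted p = 2.57e-06 and 7.99e-06), were called. Tsc22d3 was called lower in CA1 than in CA3 below 9000 (-0.18, limma adjusted p = 0.0171), with -0.004 from 9000 up (adjusted p = 0.98), and this change was not called (limma adjusted p = 0.139).

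In all, 3 of the 8 entries were called between CA1 and CA3, where 14.4% of all genes tested were, 2 between CA1 and DG (26.9% of all genes) and 1 between CA3 and DG (28.5% of all genes). Without the 14 libraries nearer another subfield the counts were 4, 3 and 1, with Sgk1 then called lower in CA1 than in CA3 (log2 difference -0.29, limma adjusted p = 0.00964) and Zbtb16 higher in CA1 than in DG (0.20, adjusted p = 0.00949). The Sgk1 difference was then -0.64 below 9000 and 0.26 from 9000 up (limma adjusted p = 4.75e-08 and 0.107). Shares of all genes were not taken without the libraries nearer another subfield. The counts of 4, 3 and 1 are thus not read as a result about the members.

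Within the series the counts of called entries were 6, 4 and 2 below 9000, beside 21.8%, 15.7% and 23.4% of all genes. From 9000 up they were 0, 1 and 2, beside 3.95%, 20.9% and 22% of all genes, and of the 8 entries 3 had an unadjusted limma p under 0.05 between CA1 and CA3. The difference between the series was called for 4 entries in CA1 minus CA3 (Nr3c2, Hsd11b1, Fkbp5 and Sgk1), beside 13.9% of all genes, and for 3 in CA3 minus DG (Nr3c2, Fkbp5 and Sgk1), beside 17.2%. For CA1 minus DG it was called for 0 by limma, with 0 at an unadjusted p under 0.05, beside 0.108% of all genes. Without the libraries nearer another subfield these counts of differences between the series were also 4, 3 and 0. No share of all genes was taken there, so these are not read as a result about the members.

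**Figure D1:**
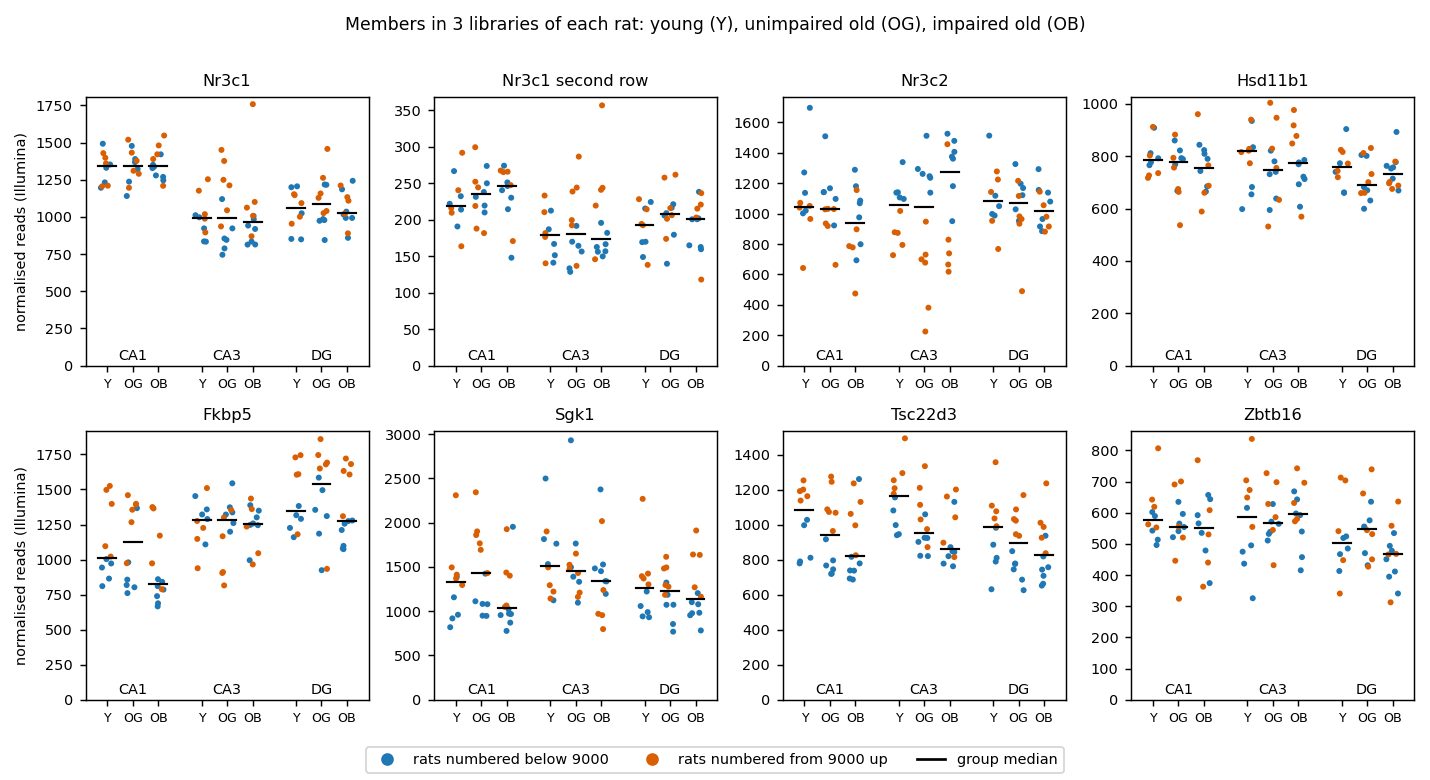
Normalised reads (Illumina table) of the 8 member entries, 1 panel each, in Y, OG and OB rats of CA1, CA3 and DG; each dot is a library, blue for rats numbered below 9000 and orange from 9000 up, and each line is a group median. Fkbp5 medians rise from 974 in CA1 to 1336 in DG over all rats, Nr3c1 is highest in CA1 with a median of 1344, and in CA1 the Fkbp5 dots of the rats from 9000 up (median 1360) lie mostly above those below 9000 (median 830).

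**Figure D2:**
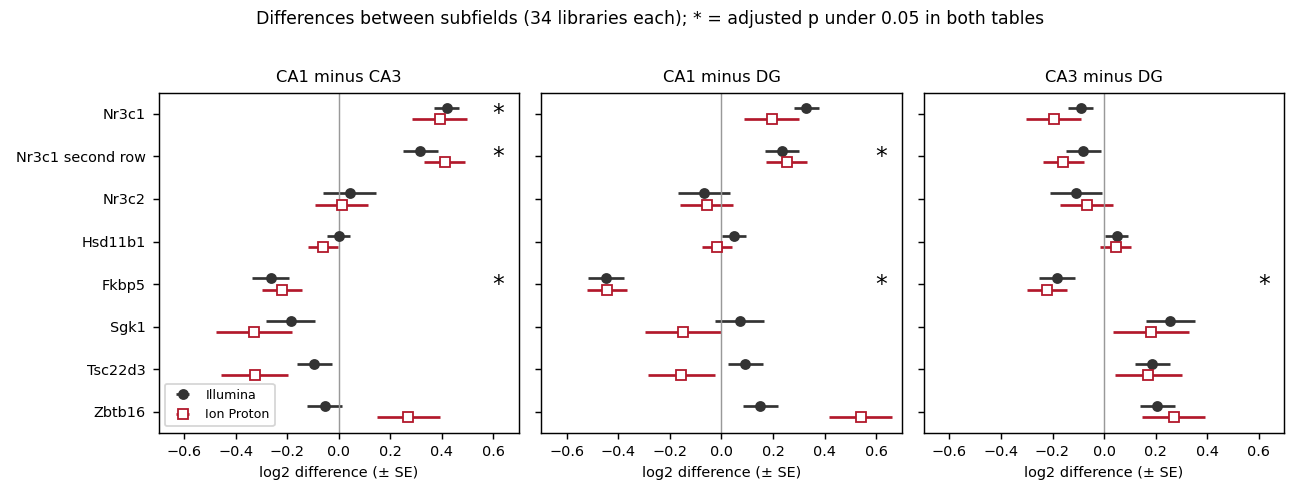
Log2 differences between subfields for each member, with bars of 1 SE, filled circles for the Illumina and open squares for the Ion Proton table and an asterisk where both tables called the difference over all rats. Nr3c1 lies at 0.42 for CA1 minus CA3 and Fkbp5 at -0.45 for CA1 minus DG.

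Promoter sequences are shown for the 3 induced genes with a RefSeq window. RefSeq promoter windows (GRCr8, 250 bases before to 50 after a start) were found for 4 of the 7 members, with 9 windows in all, and for Nr3c2, Hsd11b1 and Zbtb16 none is printed. RefSeq places Tsc22d3 on chromosome X in GRCr8, while the deposited tables list it on chromosome 3. The lines below give the 250 bases before the most downstream start, 5′ to 3′ on the minus strand, at chr20:6543556-6543805 for Fkbp5, chr1:24804832-24805081 for Sgk1 and chrX:109010035-109010284 for Tsc22d3. Capitals mark the GC box GGGCGG, read on either strand, and the TATA box TATAAA.
Fkbp5: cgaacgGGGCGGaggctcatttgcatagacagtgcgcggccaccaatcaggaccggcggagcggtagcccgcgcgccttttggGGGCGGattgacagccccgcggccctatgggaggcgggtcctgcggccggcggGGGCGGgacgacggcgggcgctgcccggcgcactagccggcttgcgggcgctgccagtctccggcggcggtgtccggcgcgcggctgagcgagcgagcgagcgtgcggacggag
Sgk1: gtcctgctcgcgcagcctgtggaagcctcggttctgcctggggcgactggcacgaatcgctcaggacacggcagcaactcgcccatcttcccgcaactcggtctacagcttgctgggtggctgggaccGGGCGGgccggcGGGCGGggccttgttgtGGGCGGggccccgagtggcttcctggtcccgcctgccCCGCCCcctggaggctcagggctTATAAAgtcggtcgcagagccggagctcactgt
Tsc22d3: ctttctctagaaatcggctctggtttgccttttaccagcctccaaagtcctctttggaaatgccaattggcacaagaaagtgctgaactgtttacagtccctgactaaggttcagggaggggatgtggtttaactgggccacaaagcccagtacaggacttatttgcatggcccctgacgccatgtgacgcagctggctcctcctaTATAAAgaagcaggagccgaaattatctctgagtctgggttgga

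The 3 stretches are unlike in base composition. The Fkbp5 window of 300 bases was 77% G and C, with 4 GC boxes, and the Sgk1 window was 66% G and C, with 4 GC boxes and a TATA box. The Tsc22d3 window was 50.7% G and C, with no GC box and a TATA box. Other windows of Sgk1 were 40.7% and 51.7% G and C, with 0 and 2 GC boxes. Those of Tsc22d3 were 52% and 73%, with 1 and 3 GC boxes, so the contrast is between the starts shown only. Over all 33469 RefSeq windows of this length, 33.1% held GGGCGG and 14.2% held TATAAA, on either strand. The receptor's element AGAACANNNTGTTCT stood in 0.0149% of all windows, its looser form GNACANNNTGTNC in 0.439%, and the 6 letters AGAACA, which are contained in the first element, in 20.7%. The cAMP response element TGACGTCA was in 1.83%. None of these last 4 strings was found in the 9 member windows, which says only that the letters are not in these windows.

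Of the 4 induced genes, 3 also differed between the number series of the rats in at least 1 subfield. This comparison was added after the data were seen, with the same call rule as between subfields. In CA1, Fkbp5 ran from 666 to 1367 with a median of 830 in rats numbered below 9000 and from 789 to 1525 with a median of 1360 in rats from 9000 up. Tsc22d3 in CA1 ran from 687 to 1261 (median 779) and from 826 to 1275 (median 1134) in the same order. The ranges overlapped, with medians far apart for both genes. Fkbp5 was higher in CA1 of the rats from 9000 up by 0.51 on the log2 scale (SE 0.0772, limma adjusted p = 6.03e-06) and Tsc22d3 by 0.45 (SE 0.0645, adjusted p = 2.84e-06). Sgk1 was higher by 0.57 (limma adjusted p = 8.95e-05), with 0.61 on the Ion Proton (adjusted p = 0.0553), and was not called.

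In DG, Sgk1 was also called. There it ran from 769 to 1323 (median 1024) below 9000 and from 1163 to 2268 (median 1410) from 9000 up, and Tsc22d3 from 626 to 983 (median 767) and from 837 to 1357 (median 1028). Fkbp5 (log2 difference 0.33), Sgk1 (0.52) and Tsc22d3 (0.44) were all called in DG (limma adjusted p = 0.000879, 5.84e-06 and 6.08e-07). In CA3 only Tsc22d3 among these was called, at 0.27 (limma adjusted p = 0.000317), while Fkbp5 and Sgk1 were at -0.18 and -0.29 and were not called. Without the libraries nearer another subfield, the CA3 difference of Tsc22d3 was 0.30 and no longer called, because its Ion Proton adjusted p was 0.079, and Fkbp5 was called lower at -0.29 (limma adjusted p = 0.00171).

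Zbtb16 was not called in any subfield, with log2 differences of 0.002 in CA1, 0.27 in CA3 (limma adjusted p = 0.00599, Ion Proton 0.25, adjusted p = 0.194) and 0.10 in DG.

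Nr3c2 went the other way. In CA3 it ran from 950 to 1525 (median 1254) in the 18 rats below 9000 and from 225 to 1456 (median 734) in the 16 from 9000 up, with the groups overlapping. The log2 difference was -0.80 (SE 0.138, limma adjusted p = 1.29e-05) in the Illumina table and -0.94 in the Ion Proton table. In CA1 it was -0.34 (limma adjusted p = 0.00896). Without the libraries nearer another subfield the CA3 difference was -0.94 and still called, while that in CA1 was -0.39 and no longer called, because its Ion Proton adjusted p was 0.067. Of the 8 entries, 3 were called in CA1 between number series, 2 in CA3 and 3 in DG, beside 7.68%, 18.6% and 13.2% of all genes tested.

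Markers of other cell types moved with the number series. All 8 oligodendrocyte markers and all 4 blood markers listed were measured. In CA1 the summed oligodendrocyte markers ran from 76317 to 154036 (median 111478) among the lower numbers, against 108037 to 298315 (median 190956) among the higher. In CA3 the medians stood in the opposite order, with a span of 121796 to 392035 (median 164940) among the lower numbers and of 56377 to 230451 (median 116367). In DG the order was that of CA1, 46121 to 82326 (median 56978) against 69098 to 223794 (median 122372). Blood markers summed to 646 to 6803 (median 1369) against 1535 to 7748 (median 3218) in CA1. For CA3 the blood sums were 697 to 3646 (median 1021) and 1372 to 6906 (median 3264), and for DG they were 672 to 3614 (median 946) and 1043 to 3595 (median 2236), so the higher numbers held the higher median in each subfield. The 7 astrocyte markers, all measured, summed to 52876 to 70168 (median 60892) against 62534 to 93259 (median 75250) in CA1. Their medians were 58886 and 71672 in CA3, and 55867 and 64294 in DG. Oligodendrocyte precursor, microglia, endothelium, choroid plexus and leptomeninges sums also had the higher median from 9000 up in each subfield.

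Some neuronal markers also differed between the series. CA1 pyramidal sums (4 of 6 measured) had medians of 14282.5 below 9000 and 13323 from 9000 up in CA1, and 8887 and 8988 in CA3. In CA1, beside the calls of Fkbp5, Tsc22d3 and Nr3c2, interneuron markers (5 of 6 measured) ran from 5982 to 8839 (median 7313) below 9000 and from 4255 to 6852 (median 5463) from 9000 up. The next values are for CA3, beside the Nr3c2 difference there. Markers of CA2 and CA3 pyramidal cells (9 of 10 measured) ran from 16079.5 to 22225 (median 17849.5) below 9000 and from 4394 to 20918.5 (median 14722) from 9000 up. Subiculum markers (3 of 4 measured) ran from 731 to 1133 (median 969) and from 753 to 4616 (median 1913) in the same order, and dentate granule markers (5 of 7 measured) from 555 to 1491 (median 858) and from 807 to 6704 (median 1429). In DG, subiculum markers ran from 568 to 1183 (median 839) and from 393 to 1857 (median 1221.5). Dentate granule medians in DG were 5818 and 4842, and interneuron medians in CA3 were 6321 and 6569, in the same order. The part of any of these lists in the member differences was not tested.

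Oligodendrocyte, astrocyte and blood sums were set against the members across rats, giving 63 relations, 21 per list, of which 12, 7 and 11 had an adjusted p under 0.05. At the lowest absolute r among these, 0.38, 34.9%, 30.1% and 34.7% of the values over all genes were as far from 0. Sgk1 went with the oligodendrocyte markers in each subfield. Pearson's r was 0.70 in CA1 (Spearman's rho 0.67), 0.54 in CA3 (rho 0.53) and 0.86 in DG (rho 0.85), with permutation p values, adjusted over 63 marker relations, of 0.000157, 0.00445 and 0.000157. Within the rats below 9000 r was 0.19, 0.33 and 0.57, and within those from 9000 up it was 0.54, 0.55 and 0.72. Without the 2 rats farthest from the median, r was 0.66, 0.44 and 0.81. Within the series r was below its value over all rats, other than in CA3 from 9000 up.

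Hsd11b1 ran opposite to these markers in CA3. Its r was -0.68 and its rho -0.73 (permutation test, adjusted p = 0.000157), with -0.79 within the rats below 9000 and -0.54 within those from 9000 up, -0.64 without the 2 farthest rats and -0.75 in the Ion Proton table. Zbtb16 in CA3 stood at r = -0.59 and rho = -0.52 (permutation adjusted p = 0.0016), and at -0.46 and -0.41 within the series. Tsc22d3 had r of 0.64 in CA1 and 0.74 in DG, but within the series these fell to 0.11 and 0.14 in CA1 and to -0.13 and 0.52 in DG, so it did not hold within either series in CA1 or below 9000 in DG.

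The 2 receptors were related to the blood markers with opposite signs. Nr3c2 in CA1 had r = -0.67 and rho = -0.61 (permutation adjusted p = 0.000504 and 0.00184), with -0.47 below 9000 and -0.65 from 9000 up, -0.68 without the 2 farthest rats and -0.21 in the Ion Proton table. In CA3 it had r = -0.59 and rho = -0.59 (permutation adjusted p = 0.00119 and 0.00184), -0.61 without the 2 farthest rats, but 0.09 and -0.13 within the series. The main Nr3c1 entry in CA3 had r = 0.62 and rho = 0.64 (permutation adjusted p = 0.00105 and 0.00063), 0.60 without the 2 farthest rats, with 0.06 below 9000 and 0.39 from 9000 up. Neither CA3 relation was as large within the series. For astrocyte markers, Fkbp5 in CA1 had r = 0.60 and rho = 0.52 (permutation adjusted p = 0.00119 and 0.00665), 0.54 without the 2 farthest rats, with -0.11 and 0.37 within the series.

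**Figure D3:**
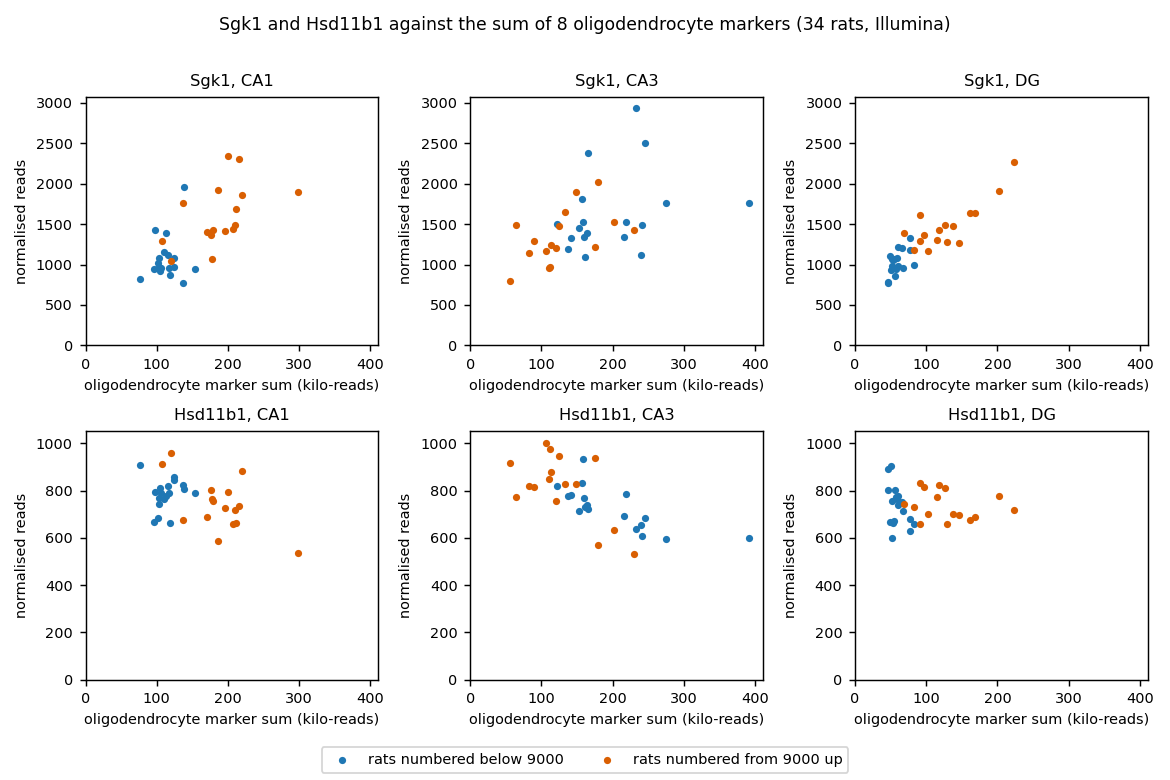
Normalised reads of Sgk1 and Hsd11b1 against the sum of 8 oligodendrocyte marker genes (normalised reads, axis in kilo-reads) in CA1, CA3 and DG; each dot is a rat, blue below 9000 and orange from 9000 up. Sgk1 goes up with the marker sum in each panel (r = 0.70, 0.54 and 0.86), and Hsd11b1 goes down in CA3 (r = -0.68).

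Over all rats, Tsc22d3 kept its rank within a rat most closely of the 8 entries in the Illumina table. A rat with a high value in 1 subfield had a high value in the others, with r = 0.85 between CA1 and CA3 (rho 0.85), 0.87 between CA1 and DG (rho 0.88) and 0.80 between CA3 and DG (rho 0.81) over 34 rats. Each had a permutation p of 1e-05, the smallest these resamples can give, and an adjusted p of 8e-05 over the 24 relations tested. Without the 2 farthest rats r was 0.83, 0.84 and 0.78. Within the rats below 9000 r was 0.87, 0.81 and 0.80, and within those from 9000 up it was 0.76, 0.43 and 0.60, of which the CA1 to DG value did not pass (permutation test, adjusted p = 0.217). On the Ion Proton these were 0.68, 0.63 and 0.48, and in the WT table they were 0.90, 0.91 and 0.87. Without the libraries nearer another subfield r rose to 0.95, 0.92 and 0.87.

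The ends of the range were partly shared. Of the 8 rats with the highest values in each subfield, 6 were among the highest in all 3 subfields, and all 6 were numbered from 9000 up, while 4 rats, all below 9000, were among the 8 lowest in all 3. Over all genes tested the median r between subfields of a rat was 0.19 for CA1 and CA3, 0.18 for CA1 and DG, and 0.14 for CA3 and DG, and 0.108%, 0.0935% and 0.201% of genes had a higher r than Tsc22d3. Of the 24 member relations 11 had an adjusted p under 0.05. At the lowest absolute r among these, 0.40, 20.3%, 20.2% and 18.1% of all genes were as far from 0.

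Sgk1 followed the rat in a different manner. Between CA1 and CA3 the series lay apart, so r is given within them, at 0.84 (rho 0.80) below 9000 and 0.68 (rho 0.60) from 9000 up, with permutation adjusted p values of 4e-04 and 0.0202. Between CA1 and DG r was 0.69 below 9000 and -0.20 from 9000 up, and between CA3 and DG it was 0.76 and -0.37. Rats below 9000 thus kept their rank for Sgk1 in all 3 subfields, and rats from 9000 up only between CA1 and CA3. Their difference was not tested.

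Nr3c1 varied with the rat between CA3 and DG, where r was 0.61 for the main entry (rho 0.67, permutation adjusted p = 0.00048) and 0.66 for the other (rho 0.71, adjusted p = 0.00018). Within series the main entry stood at 0.73 and 0.54 and the other at 0.52 and 0.76. On the Ion Proton the main entry fell to 0.32. The other entry also passed between CA1 and CA3 (r = 0.43, permutation adjusted p = 0.0247) and between CA1 and DG (0.47, adjusted p = 0.0132). These r values were 0.03 and 0.17 below 9000, 0.73 and 0.69 from 9000 up, and 0.35 and 0.18 on the Ion Proton. From 9000 up the other entry's r with DG was above that of Tsc22d3 for both CA1 and CA3. Fkbp5 had r = 0.52 between CA1 and DG (rho 0.54, permutation adjusted p = 0.00614), which was 0.62 below 9000 and -0.22 from 9000 up.

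**Figure D4:**
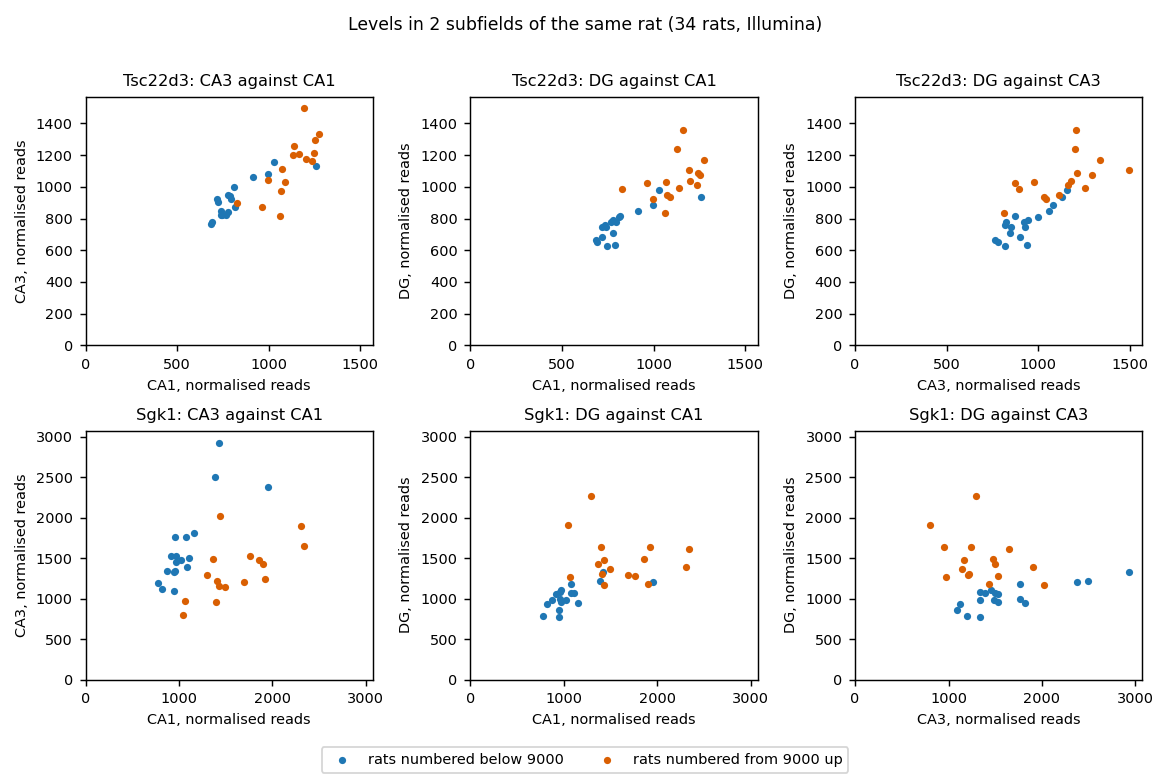
Normalised reads of Tsc22d3 (top) and Sgk1 (bottom) in 1 subfield against another of the same rat, for the 3 pairs of subfields, with blue dots for rats below 9000 and orange dots from 9000 up. Tsc22d3 lies along a rising band in every pair (r = 0.85, 0.87 and 0.80), while the Sgk1 series form separate bands between CA1 and CA3.

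Members were set against each other within a subfield. Of 63 pairs of members and subfields, 11 had an adjusted permutation p under 0.05. Among all correlations of members with all genes, 15.3% in CA1, 24.5% in CA3 and 16.1% in DG reached the lowest absolute r among these, 0.43, so the count of pairs is near the share over all genes and is not read as a property of the members. Sgk1 and Tsc22d3 were the closest pair, at r = 0.81 in CA1 (rho 0.81) and 0.83 in DG (rho 0.82), both with a permutation adjusted p of 0.00021, but at 0.06 in CA3 (adjusted p = 0.873). In CA1 the value was 0.88 below 9000 and 0.30 from 9000 up, and in DG it was 0.35 and 0.84. Within the rats below 9000 the pair stood at 0.74 in CA3 (permutation adjusted p = 0.00777), and within those from 9000 up at -0.02 (adjusted p = 0.963). On the Ion Proton it was 0.85 in CA1 and 0.88 in DG.

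Fkbp5 went with Sgk1 and with Tsc22d3 in CA1 (r = 0.62 and 0.63) and DG (0.59 and 0.51), with permutation adjusted p values of 0.00126, 0.00151, 0.00336 and 0.0127. Within the rats from 9000 up these 4 relations were at 0.09, -0.16, -0.17 and -0.14. They were at 0.47, 0.41, 0.84 and 0.27 below 9000, where Fkbp5 with Sgk1 in DG passed on its own (permutation adjusted p = 0.00063). So 3 of the 4 held over all rats and in neither series.

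The receptor Nr3c2 went with Fkbp5 in CA3, at r = 0.69 and rho 0.48 (permutation adjusted p = 0.00021 and 0.0301), with 0.65 and 0.63 within the series and 0.61 on the Ion Proton. Without the 2 farthest rats r was 0.48. Nr3c2 and Tsc22d3 ran opposite, at -0.53 in CA1, -0.56 in CA3 and -0.43 in DG (permutation adjusted p = 0.00606, 0.00342 and 0.0486), and within the series at -0.31 and -0.37, -0.31 and -0.28, and -0.49 and -0.27, none of which passed.

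Over all libraries with subfield means removed, the genes most like each member were taken from 13907 genes. Nr3c2 was closest to Shisa6 (r = 0.92, Ion Proton 0.82), Gria1 (0.92 and 0.81) and Lrrn2 (0.92 and 0.60), of which Gria1 encodes an AMPA receptor subunit. Sgk1 was closest to Mtmr2 (0.84 and 0.75), Adipor2 (0.80 and 0.16) and Gpd1 (0.78 and 0.53). Tsc22d3 was closest to LOC501110 (0.81 and 0.55), Gpd1 (0.80 and 0.61), which encodes a glycerol-3-phosphate dehydrogenase, and Gpatch4 (0.79 and 0.42). Gpd1 was thus on the list of both.

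For the others the same search gave Lix1 (0.78 and 0.70), St6galnac6 (0.76 and -0.16) and Elovl2 (0.75 and 0.74) for Hsd11b1. Fkbp5 was closest to Pcdh20 (0.79 and 0.64), Sec61a1 (0.75 and 0.21) and Agtrap (0.74 and 0.25). The main Nr3c1 entry gave Zfhx4 (0.80 and 0.48), Cldn12 (0.79 and 0.51) and the other Nr3c1 entry (0.74 and 0.58), and that other entry gave Ep300 (0.77 and 0.28), Tmtc1 (0.77 and -0.02) and Phip (0.76 and 0.34). Zbtb16 had no close match, with Shank1 (0.58 and 0.46), Spred2 (0.57 and 0.28) and Rara (0.55 and 0.20) at the top. These libraries share rats and dissections, so the r values describe likeness only.

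Age and maze class were compared next, within each subfield. In 12 comparisons the 8 entries gave 96 values, of which 0 had a limma adjusted p under 0.05 (lowest 0.629) and 4 had an unadjusted p under 0.05, beside 0.0671% and 4.47% of all values over the tested genes. On the recovered reads 0 also had an adjusted p under 0.05 by edgeR and 0 by DESeq2, with 4 and 4 at an unadjusted p under 0.05. The largest absolute log2 change was 0.36. A gene was called on retest when its unadjusted p was under 0.01 on the Illumina and its one-sided p under 0.05 in the same direction on the Ion Proton. Tsc22d3 in CA3 met this in 2 comparisons and no other member did, where 0.604% of all values did.

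Tsc22d3 was lower in CA3 of aged rats. The 10 young rats ran from 940 to 1494 with a median of 1167 (mean 1155, SD 172), and the 24 aged rats from 763 to 1335 with a median of 913 (mean 965, SD 158). The groups overlapped, and 21 of the 24 aged rats lay below the young median. The log2 difference was -0.26 (SE 0.0824, limma p = 0.003, adjusted p = 0.666), with -0.28 on the Ion Proton (two-sided p = 0.0515) and -0.22 in the WT table (p = 0.0742). The call was thus 1 of 8 entries, beside 0.402% of all genes called on retest in this comparison and 0.0574% called lower.

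Impaired rats had the lowest median. OB rats ran from 763 to 1201 with a median of 860, and OG rats from 821 to 1335 with a median of 950. Against young rats the difference was -0.31 for OB (SE 0.0931, limma p = 0.00253, adjusted p = 1; Ion Proton -0.43, p = 0.00166), which was called on retest beside 0.28% of all genes. For OG it was -0.21 (limma p = 0.0272, adjusted p = 1; Ion Proton -0.14, p = 0.419) and not called, beside 0.394% of all genes. These comparisons share the young rats. OB and OG rats were not called apart in CA3, where 0.0216% of all genes were.

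The same sign was seen within both number series. Below 9000 the young rats ran from 940 to 1156 (median 998), OG rats from 821 to 1059 (median 913) and OB rats from 763 to 1131 (median 844). From 9000 up the young rats ran from 1177 to 1494 (median 1254), OG rats from 872 to 1335 (median 1072) and OB rats from 815 to 1201 (median 1042). The aged minus young difference of Tsc22d3 was -0.21 (limma p = 0.0121) below 9000 and -0.29 (p = 0.0131) from 9000 up, so neither reached the threshold alone. With the series as a covariate it was -0.25 (limma p = 0.000484, adjusted p = 0.209). The call for all aged rats was lost without the 7 deeply sequenced rats and when R1922, R9876 or R9879, each a young rat, was left out, with p between 0.000867 and 0.0117 over the 34 removals. The OB against young call held in all 22 such removals but in neither series alone, at -0.25 below 9000 (limma p = 0.0134) and -0.34 from 9000 up (p = 0.015).

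Marker sums of other cell types in CA3 are set beside this difference. Summed over 8 of 8 oligodendrocyte genes, aged rats ran from 56377 to 275103 (median 156089) and young rats from 64115 to 392035 (median 158018). The 7 astrocyte genes summed to 52027 to 78995 in aged and 51118 to 70355 in young rats (medians 64267 and 56496). The 6 microglia genes gave 2917 to 6151 and 2898 to 3724 (medians 3715 and 3173), and the 4 blood genes 697 to 5864 and 763 to 6906 (medians 2221.3 and 1209.5). All of these ranges overlapped. Their part in the Tsc22d3 difference was not tested.

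CA3 was not singled out by a test. Tsc22d3 in CA1 ran from 779 to 1253 in young rats (median 1083) and from 687 to 1275 in aged rats (median 871), with a log2 difference of -0.16 (limma p = 0.137), and in DG the medians were 987 and 843. The test of whether its age difference was unlike between CA1 and CA3 gave 0.10 (SE 0.142, limma adjusted p = 1). Of 48 such values over the 8 entries, for age and for maze class, 0 had a limma adjusted p under 0.05, as had 0% of all genes, and 1 had an unadjusted p under 0.05. By edgeR and by DESeq2 0 were called as well, with 0 and 0 unadjusted.

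For Fkbp5 in CA1 the call depended on which libraries were used. Young rats ran from 811 to 1525 (median 1012), OG rats from 761 to 1459 (median 1124) and OB rats from 666 to 1375 (median 826). OB minus young was -0.28 (limma p = 0.0516), beside 1.23% of all genes called on retest. It was called without the libraries nearer another subfield (-0.40, limma p = 0.00409) and within the rats below 9000 (-0.26, p = 0.00464), and the OB and OG ranges overlapped throughout. Zbtb16 in DG ran from 427 to 739 in OG rats (median 549) and from 313 to 636 in OB rats (median 467), a log2 difference of -0.25 (limma p = 0.0226, Ion Proton -0.22, p = 0.182), which was not called beside 0.124% of all genes.

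The receptors and Hsd11b1 gave no call by age or maze class. In CA1 the median of the main Nr3c1 entry was 1341 in Y, 1345 in OG and 1344 in OB rats. The medians of Nr3c2 in CA1 were 1045, 1031 and 936, and those of Hsd11b1 were 784, 779 and 754. No value of these 3 genes had an unadjusted limma p under 0.05 in the 12 comparisons. The lowest value for maze class between subfields was that of Nr3c2 between CA1 and CA3 (log2 difference -0.55, limma p = 0.0394, adjusted p = 0.959).

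**Figure D5:**
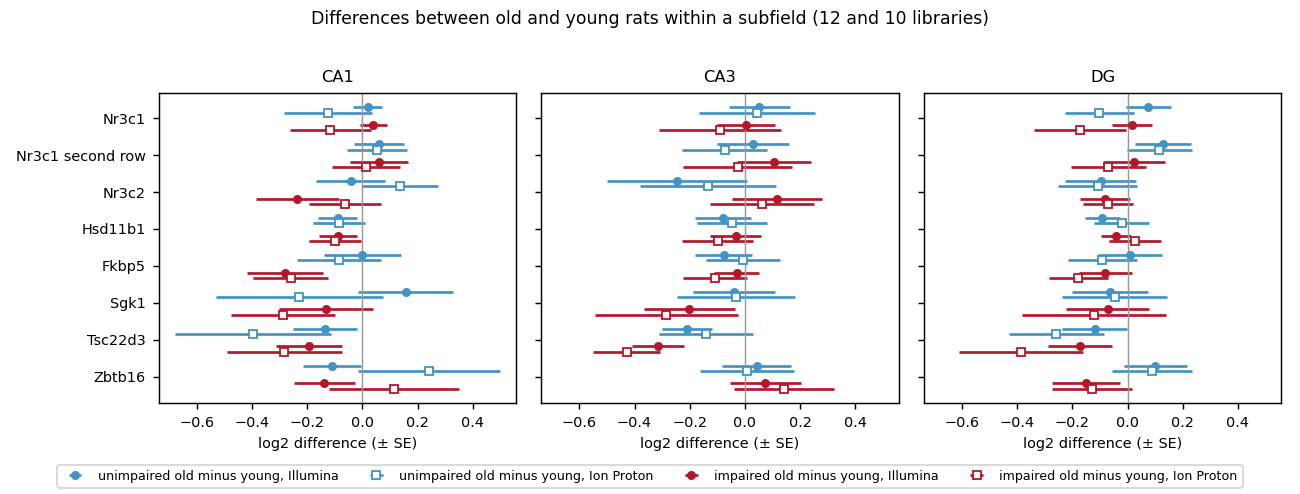
Log2 differences of OG minus young and OB minus young rats for each member in CA1, CA3 and DG, with bars of 1 SE, for the Illumina and the Ion Proton table. Tsc22d3 in CA3 lies at -0.21 for OG and -0.31 for OB in the Illumina table, and most other members lie within their bars of 0 or close to it.

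Other genes of the pathway were read from 5 lists, over all rats and not within the number series. Of 19 further glucocorticoid-induced genes tested (of 20 listed), 2 were called higher and 0 lower in CA1 than in CA3, 5 higher and 1 lower in CA1 than in DG, and 4 higher and 1 lower in CA3 than in DG. These shares are near the 14.4%, 26.9% and 28.5% of all genes called in the 3 comparisons. The list's median log2 difference was 0.02, 0.15 and 0.18, beside medians of 0.00597, 0.00115 and 0.00846 over all genes. Dusp1, a phosphatase that shuts off MAP kinases, was higher in CA1 than in CA3 by 0.41 and than in DG by 0.74 (limma adjusted p = 0.00231 and 3.2e-08). Cdkn1a, an inhibitor of the cell cycle, exceeded DG by 0.63 in CA1 and 0.66 in CA3 (limma adjusted p = 4.72e-05 and 1.84e-05). Cebpd, a transcription factor, was lower than in DG by 0.48 in CA1 and 1.12 in CA3 (log2 differences -0.48 and -1.12, limma adjusted p = 9.87e-05 and 9.33e-16). By maze class, 1 of the 19 genes was higher and 18 lower in OB than in OG rats of CA3, beside 49.2% of all genes higher. In CA1 the counts were 4 and 15 (48.1% of all genes higher), and in DG 6 and 13 (48.6%). These directions were not tested.

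Relatives and substrates of Sgk1 were uneven. Of 6 tested (of 8 listed), 2 were called higher in CA1 than in CA3, 3 higher and 1 lower in CA1 than in DG, and 3 higher and 2 lower in CA3 than in DG, set against the same shares of all genes (14.4%, 26.9% and 28.5%). The kinases Sgk2 and Sgk3 exceeded DG by 0.77 and 0.62 in CA1 and by 0.84 and 0.77 in CA3 (limma adjusted p = 4.19e-05, 1.22e-07, 6.26e-06 and 2e-10). Nedd4, a ubiquitin ligase, was above CA3 in CA1 by 0.23 (limma adjusted p = 1.01e-08) and below DG in CA3 (log2 difference -0.42, adjusted p = 2.54e-19). Nedd4l, its relative that SGK1 phosphorylates, was above CA3 in CA1 by 0.17 and below DG in CA3 at -0.31 (limma adjusted p = 0.00357 and 9.63e-08). Ndrg1, a substrate of SGK kinases, exceeded DG in CA3 by 0.60 (limma adjusted p = 4.65e-09).

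Genes of the stress peptide axis and the receptor's partners came last. Crhr1, the receptor of corticotropin-releasing hormone, was lower in CA1 than in CA3 (log2 difference -0.51) and DG (-0.53; limma adjusted p = 0.00177 and 0.000545), and was the only 1 of 6 tested genes of that axis called between CA1 and CA3. Crhbp, which binds that hormone, exceeded DG by 0.55 in CA1 and 0.60 in CA3 (limma adjusted p = 9.28e-07 and 8.43e-08). Of 10 receptor chaperones and cofactors tested, 2 were called in each comparison of CA1 and 1 between CA3 and DG, and of 4 steroid enzymes and transporters 1 was called in each, against 14.4%, 26.9% and 28.5% of all genes. By age, Per1, a clock gene, was called lower on retest in CA1 of aged rats (-0.18, limma p = 0.00459, beside 0.851% of all genes) and of OB rats against young (-0.23, p = 0.00274). Ndrg1 was called higher in CA1 of OB rats against young (0.24, limma p = 0.00859), and Mt2A, a metallothionein, lower in CA1 of OB than OG rats (-0.29, p = 0.00969, beside 0.635% of all genes). None of these had an adjusted p under 0.05, and these 4 calls, in CA1, were all that the 5 lists gave for age and maze class. Marker sums in CA1 had medians of 130788 in OB and 111478 in young rats for oligodendrocytes, and of 65803 and 60963 for astrocytes. For microglia they were 3602 and 3103, and for blood 2337 and 1569. All of these ranges overlapped, and their part in the calls was not tested.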

How the data were processed

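RNA abundance had been measured in 3 hippocampal subfields of each of 34 rats, and groups were read from the sample titles. The values deposited by the authors were a normalised signal, gene reads divided by a size factor per library made with DESeq2 (version 1.16.1 in the submitters' processing notes). In the study's methods, Illumina read pairs of 50 bases had been trimmed with CutAdapt 1.8.3, aligned to rn5 with STAR 2.5 and counted with featureCounts 1.4.4, and Ion Proton reads had been aligned with TopHat2 and Bowtie2. How the WT table was made is not given in the sources used here. The labels and the methods name different TruSeq kits, so whether strand was kept is unknown, and genes that overlap may share reads. The tables give chromosomes but no positions, and promoter windows came from RefSeq (GRCr8).

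The members and lists were chosen with earlier results of these data known. On log2(value + 1), genes with a mean of at least 10 entered limma (version 3.58.1, R 4.3.3). This scale understates changes of low genes. P-values had Benjamini-Hochberg adjustment over all genes. Age and maze thresholds followed the study, which had used DESeq2. The Ion Proton libraries came from the same rats, so a retest bears on technical error only. Every value was a whole multiple of 1 step per library (tolerance 0.001), and the reads recovered in this way gave the depths and were tested with edgeR 4.0.16 and DESeq2 1.42.0 as alternatives. Low depth limits counting precision, and intervals cover the spread between rats. Pairing came from the rat, since its number was shared by its 3 libraries, and a fit with the rat as a block was an alternative. Correlations used 1e+05 resamples in two-sided permutation tests. Named genes were the members, the 3 genes most like each, and, of 5 pathway lists, up to 4 genes per direction with the largest called change. The other alternatives were a pseudocount of 0.1, no filter, quantile normalisation, the WT table, the number series as a covariate, each series alone (for subfields added after the data were seen), and fits without the deeply sequenced rats, without the libraries nearer another subfield or without each rat in turn. Tests were checked on simulated data. No column of other samples was used.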

Additional observations from a re-analysis of the deposited data

Results flagged for a closer look

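Among young rats, a single library stood far above the other 9 in 7 of 48 groups of member, table and subfield by Dixon's test, and chance flags about 1 in 20 groups. For Sgk1 these were the CA1 library of R9780 in the Illumina table, at 2308 with the next at 1494, and in the Ion Proton table, at 2660 with the next at 1605. They also included the DG library of R9881 in the Illumina table, at 2268 with the next at 1424, and the CA3 library of R1922 in the Ion Proton table, at 3343. Zbtb16 was at 807 in the Illumina CA1 library of R9877, with the next at 642. In Ion Proton CA1 libraries, Nr3c2 was at 2246 in R2221, with the next at 1544, and Hsd11b1 was at 907 in R2175, with the next at 784. R1922 and R9780 are among the 7 rats deeply sequenced on the Illumina. Their Ion Proton libraries named here held 8.22 M (R1922, CA3) and 7.17 M reads (R9780, CA1). The cause of these values was not tested.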

How the results depend on the processing

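Counts of called members stayed within 1.5 times of the values given under a pseudocount of 0.1, no filter, quantile normalisation, edgeR and DESeq2. With the rat as a replicate block, 3 members were called between CA1 and CA3, 3 between CA1 and DG and 1 between CA3 and DG, Zbtb16 being the addition, and no age or maze effect differed between subfields. Using WT in place of the Ion Proton, 2 members were called between CA3 and DG. Leaving out 1 rat gave 2 to 3 members between CA1 and CA3, 2 to 3 between CA1 and DG, and 0 to 2 between CA3 and DG, where removing R1922 or R2230 added Zbtb16 and removing R9869 dropped Fkbp5.

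Added after seeing the data, fits within a number series called 6, 4 and 2 members (CA1 and CA3, CA1 and DG, CA3 and DG) below 9000 and 0, 1 and 2 from 9000 up, and without libraries nearer another subfield 5, 3 and 2 and 0, 1 and 2. Below 9000 the direction turned for Nr3c2 in CA1 minus CA3 (-0.19), and in CA3 minus DG for Nr3c2 (0.20, and 0.19 without those libraries) and Fkbp5 (0.058 and 0.033). From 9000 up it turned for Fkbp5 in CA1 minus CA3 (0.11 and 0.17). These are turns of differences called over all rats or in the fit named. Differences called in neither turned as well. Among them was Sgk1 from 9000 up, at 0.26 in CA1 minus CA3 and -0.16 in CA3 minus DG.

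For aged against young rats in CA3 the count of 1 became 0 without the deeply sequenced rats, in rats numbered below 9000 and in rats numbered from 9000 up, and 0 to 1 when leaving out 1 rat (0 without R1922, R9876 or R9879). For impaired against young rats in CA3 it became 0 within each series and stayed at 1 in every removal. For impaired against young rats in CA1 the count of 0 became 1 without libraries nearer another subfield and 1 in rats below 9000 (Fkbp5), and 2 with the series as a covariate and without those libraries (Fkbp5 and Tsc22d3), a setting chosen after seeing the data, which also gave 1 for aged against young rats in CA1 (Tsc22d3 -0.17, limma p = 0.00315). The other age and maze counts were 0 in every removal. Of 63 pairs of members, 11 passed, with 19 in the Ion Proton table, 22 in the WT table and 7 with series means subtracted. Except for the subfield fits within a series over all libraries, shares of all genes were not taken under these settings. Their counts are thus not read as a result about the members. The cause of these changes in counts was not tested. Under the other settings no member's called difference turned its direction. Depth of 3.25 M reads in the shallowest library limits single values more than group medians, and 24 aged against 10 young rats leave small changes undetected.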
